A study of Mus musculus with 36 samples.

Results

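Oxidative phosphorylation is the mitochondrial process that turns the energy of nutrients into ATP. Complexes I and II pass electrons from NADH and succinate to ubiquinone, complex III passes them to cytochrome c, complex IV passes them to oxygen, and complex V, the ATP synthase, uses the proton gradient that complexes I, III and IV build. A few core subunits are encoded on mitochondrial DNA, and the others, described here, are encoded in the nucleus and imported. Nuclear genes were taken by symbol: Nduf genes of complex I, Sdh genes of complex II, Uqcr genes of complex III, Cox4 to Cox8 genes of complex IV and Atp5 genes of complex V, without symbols that mark pseudogenes. The rule found 88 genes among 49315: 40 for complex I, 4 for complex II, 8 for complex III, 19 for complex IV and 17 for complex V. Of these, 84 were annotated as protein coding, and Ndufa11b, Ndufb4c, Ndufs6b and Cox6c2 as processed pseudogenes.

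The data are gene counts of polyadenylated RNA from 18 libraries of C2C12 cells, an established line of mouse myoblasts, the precursors of muscle fibres. The cells grew in sealed flight units, with or without nanoceria, which are cerium oxide nanoparticles coated with serum and given at 100 µg per ml in the medium reservoir, and were fixed with RNAlater. There were 6 groups of 3 libraries: space without gravity, without nanoceria; space without gravity, with nanoceria; space with gravity, without nanoceria; space with gravity, with nanoceria; land, without nanoceria; and land, with nanoceria. The labels state 3 experiment units per group and do not say whether the units came from separate cultures, so the p-values measure the spread between these libraries only. The land units were run later, on the temperature and time profile of the flight, so an effect of space and one of the run cannot be told apart.

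In the text, CPM is the count of a gene relative to the size of its library after TMM scaling, the default of edgeR, treated means with nanoceria, a fold change is on the log2 scale with the standard error (SE) of the edgeR fit, and a gene passed when its Benjamini-Hochberg adjusted p was under 0.05 over 11558 tested genes. Total counts ran from 2986628 to 11378178 in 17 libraries. The remaining library, replicate 3 of space with gravity, with nanoceria, held 23858 counts, of which 36 fell on 17 of the members, so that 3 counts there were worth 35.7 CPM against 0.193 to 1.11 CPM elsewhere. It stayed in the fits, weighted by its depth, and is left out of the means and ranges below. Mean total counts were 9214610 in space with gravity (n = 5), 5462600 in space without gravity (n = 6) and 5355530 on land (n = 6). Counts on the members averaged 16891, 9666 and 10219 per library in that order. Depth was thus higher in space with gravity than in the other regimes, and its part in the results was not tested. The labelled cell type was checked against its markers. Myf5, Des, Vim and Ncam1 had counts in 18 of 18 libraries, but Myod1, a defining factor of myoblasts, had 99 counts in 10 libraries and Pax7 52 counts in 14. Cdh15 had 122 counts in 15 libraries, Ccnb1 160 in 18, Mki67 1324 in 17 and Top2a 3287 in 17. Group means of Ncam1 were 533 CPM on land without nanoceria and 1242 CPM with it, and between 2033 and 2588 CPM in the space groups. Markers of differentiated muscle summed to between 1.60 and 18.2 CPM in space without gravity, between 0.659 and 10.7 CPM in space with gravity and between 3.32 and 97.2 CPM on land. Of these 11 markers 0 were without counts, but Mymx had counts in 1 library only, and Myh2 and Myh4 in 2 each. Of 9 markers of other cell types, Adipoq had 0 counts, and the sum ran from 4.93 to 51.1 CPM over all regimes, with 1770 counts from Cd68 and 500 from Tubb3 in all libraries. The part of these markers in the results was not tested, and in bulk RNA fewer cells of a type cannot be told apart from less RNA per cell.

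The members were abundant as a class. The level per kilobase, which is CPM divided by the gene length in kilobases, had a median of 14.1 over the tested members, against 2.35 over all tested genes. By complex the medians of tested members were 24.3 for complex IV, 19.5 for complex III, 16.6 for complex V, 9.25 for complex I and 7.67 for complex II. The spread within a complex was wide where it had many subunits. Levels per kilobase differed 81.1-fold between Ndufb9, the highest of complex I, and Ndufb2, the lowest tested one, and 1.78-fold among the 4 genes of complex II. Part of the 81.1-fold comes from the deposited gene lengths, 651 bases for Ndufb9 and 5628 bases for Ndufb2. Their counts over all libraries were 5956 and 799.

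**Figure D1:**
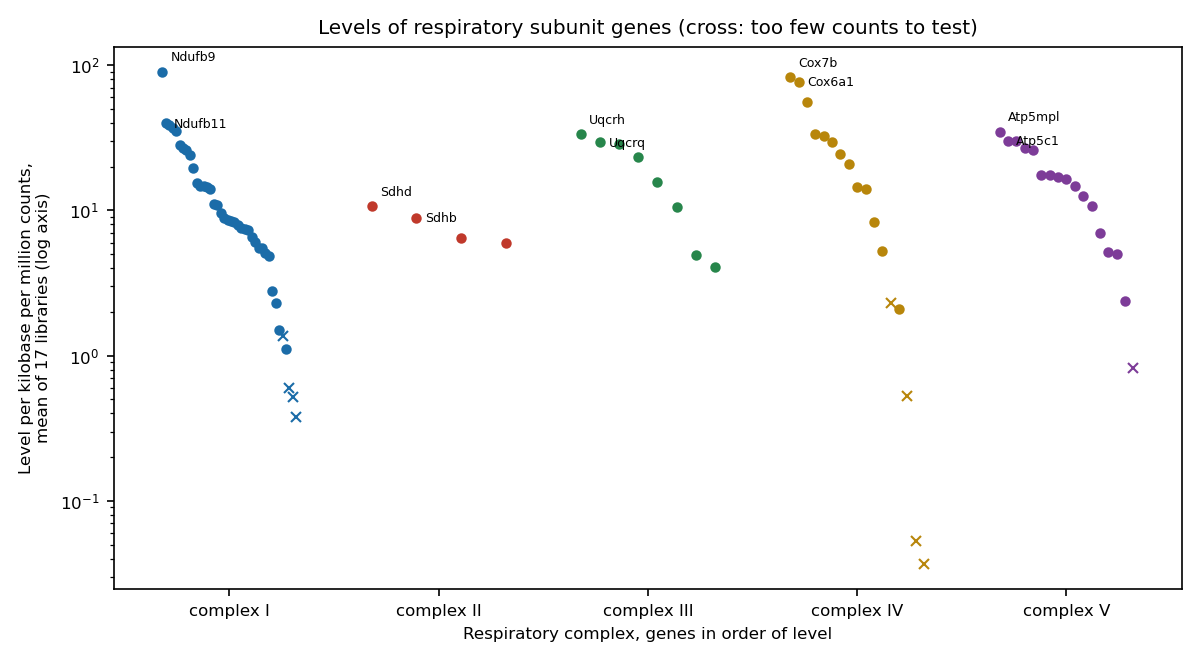
Mean level per kilobase, CPM divided by the gene length, over 17 libraries (log axis) of each member with counts, ordered within its complex, the 2 highest genes of each complex named and untested genes shown as crosses. Among tested genes complex II covers the narrowest span, 5.98 to 10.6, and complexes I and IV the widest.

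The highest levels per kilobase in complex I were those of Ndufb9, an accessory subunit of the membrane arm, at 90.2 ± 49.5 (SD, n = 17), and of Ndufb11, another one, at 39.7 ± 17.6. In complex II they were those of Sdhd, a membrane anchor, at 10.6 ± 3.74, and Sdhb, the iron-sulfur subunit, at 8.90 ± 2.39. Uqcrh, the hinge protein of complex III, had 33.3 ± 11.3 and Uqcrq, a small subunit of that complex, 29.4 ± 9.95. In complex IV, Cox7b had 82.3 ± 51.9 and Cox6a1 77.0 ± 22.4, both small nuclear subunits around the catalytic core. In complex V, Atp5mpl, a small membrane subunit, had 34.8 ± 15.3, and Atp5c1, the gamma subunit that turns inside the catalytic head, 30.0 ± 16.2. Within each of these pairs the 2 means lay closer together than the larger SD, except in complex I. The level of Cox7b is uncertain, because 2 annotated pseudogenes that match its sequence held counts equal to 20.6% of its own, and the treatment of reads that fit several copies is not given in the sources used here. In all, 25 of the 77 tested members had such a pseudogene, and for 10 of them the pseudogenes held over 5% of the gene's own counts, at most 62.1% for Ndufa12.

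Several of these subunits have alternative forms that are restricted to some tissues. The common form carried nearly all reads in each pair. Of the length-scaled level of each family, Cox4i1 made up 99.7% ± 1.36 (SD, n = 17) against Cox4i2, the lung form, and Cox6b1 99.8% ± 0.595 against Cox6b2, the testis form. Ndufa4, counted here with complex I by its symbol but known as a subunit of complex IV, made up 96.9% ± 2.49 against Ndufa4l2, a form known for its induction in low oxygen. Cox6a1 made up 93.8% ± 3.53 against Cox6a2, the heart and skeletal muscle form, which had 330 counts in the 17 libraries. Cox7b made up 97.1% ± 3.05 against Cox7b2. Cox7a2 and Cox7a2l shared their family at 53.6% ± 10.4 and 45.5% ± 10.7, and Cox7a1, the muscle form, made up 0.913% ± 1.35 from 24 counts. Cox8a was the only Cox8 gene with counts, since the muscle form Cox8b and the form Cox8c had 0 counts in 18 libraries, which allows up to 1.11 CPM in any of the 17 deeper ones. The muscle forms were thus at or near the floor in these cells, apart from Cox6a2.

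The c subunit of the ATP synthase, which builds its rotating ring, is made from 3 genes that encode the same mature protein. Atp5g3 gave 51.7% ± 9.14 (SD, n = 17) of their summed level per kilobase, Atp5g2 32.8% ± 6.01 and Atp5g1 15.5% ± 4.20. The deposited lengths used for this were 2181, 1675 and 4912 bases in that order. Before division by length, Atp5g3 had 3853 counts in the 17 libraries, Atp5g2 1808 and Atp5g1 2491. The order of Atp5g2 and Atp5g1 thus depends on the length used. In the group means Atp5g3 ran from 44.3% in space with gravity, without nanoceria to 63.6% on land, without nanoceria. It was the highest of the 3 in each of the 6 groups, and the SD of a group's 3 libraries reached 10.5 percentage points.

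After the filter on low counts, 77 of the 88 members were tested: 36 of complex I, 4 of complex II, 8 of complex III, 13 of complex IV and 16 of complex V. The 11 others were the 4 pseudogenes, Ndufa4l2, Cox4i2, Cox6b2, Cox7a1, Cox8b, Cox8c and Atp5s, with 0 to 147 counts each over all libraries.

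The first comparison asked whether nanoceria changed the members. Averaged over the 3 regimes, 0 of 77 members passed (edgeR), where percent called over all genes was 0. At an unadjusted p under 0.05 there were 0 members against 6.54% of all genes, with 1 member by DESeq2 and 4 by limma voom, of which 0 passed after adjustment. The median log2 difference with nanoceria was −0.12 for the members and −0.030 for all genes, and 56 of 77 members were below 0, against 52.7% of all genes. By complex, the smallest p belonged to Ndufv2, an iron-sulfur core subunit of complex I (−0.48 ± 0.27 SE, edgeR adjusted p 0.778), Sdhc (−0.35 ± 0.35, 0.878), Uqcrfs1, the Rieske iron-sulfur subunit of complex III (−0.43 ± 0.37, 0.862), Cox7c (−0.58 ± 0.29, 0.761) and Atp5c1 (−0.69 ± 0.34, 0.761). Within regimes 0 members passed (edgeR, DESeq2 and limma voom). Percent called was 0 each time with edgeR and limma voom. With DESeq2 it was 0 in space without gravity, 0.278 in space with gravity and 2.35 on land. At an unadjusted p under 0.05 edgeR gave 1 member in space without gravity (3.97% of all genes), 1 in space with gravity (4.46%) and 3 on land (10.2%), DESeq2 1, 0 and 7, and limma voom 1, 0 and 14. The 3 on land were the values for Atp5c1 (−1.61), Ndufv2 (−1.14) and Cox7c (−1.06). The test of whether the nanoceria effect differed between regimes gave 0 members (percent called 0). One member, Cox7c, had an unadjusted p under 0.05 (0.0464, edgeR adjusted p 0.803), against 6.14% of all genes, and limma voom gave 3.

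The second comparison asked whether withdrawing gravity in space changed the members. Averaged over nanoceria, 0 of 77 passed (edgeR), with percent called over all genes again 0. The median difference was 0.20 on the log2 scale for the members and 0.036 for all genes, and 60 members were above 0, against 52.9% of all genes. One member, Uqcrfs1, had an unadjusted p under 0.05, against 5.85% of all genes, and its value went the other way (−1.04 ± 0.45 SE, edgeR adjusted p 0.802). The smallest p in the other complexes belonged to Ndufa2 (0.56 ± 0.38, adjusted p 0.943), Sdhb (0.14 ± 0.36, 1.00), Cox6a1 (0.47 ± 0.33, 0.943) and Atp5j2, a membrane subunit of the ATP synthase (0.63 ± 0.38, 0.925). DESeq2 gave 1 member and limma voom 2 at an unadjusted p under 0.05, and neither gave a member after adjustment. At each nanoceria level alone, 0 members passed with edgeR, DESeq2 or limma voom. Percent called was 0 with edgeR and limma voom, and with DESeq2 0.0263 without nanoceria and 0.321 with it. With edgeR 0 had an unadjusted p under 0.05, against 4.05% of all genes without nanoceria and 5.78% with it. DESeq2 also gave 0 and 0, and limma voom 1 and 1.

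Space with gravity was then set against land, as the average of both nanoceria levels. Transcripts of 12 members were lower in space with gravity, by 2.20-fold to 3.48-fold, and 0 were higher. Of the 12, 9 encode accessory subunits of complex I, and complexes III, IV and V gave 1 each: Uqcr11, Cox6b1 and Atp5d. Percent called over all genes was 14 in either direction, 6.74 lower and 7.22 higher, against 12 of 77 members lower (15.6%). The median log2 difference was −0.64 for the members and −0.045 for all genes. Values were below 0 for 59 of 77 members, against 51.6% of all genes. At an unadjusted p under 0.05 there were 29 members, against 31.9% of all genes in either direction. Of the members 28 were lower, against 1860 of 11558 genes.

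**Figure D2:**
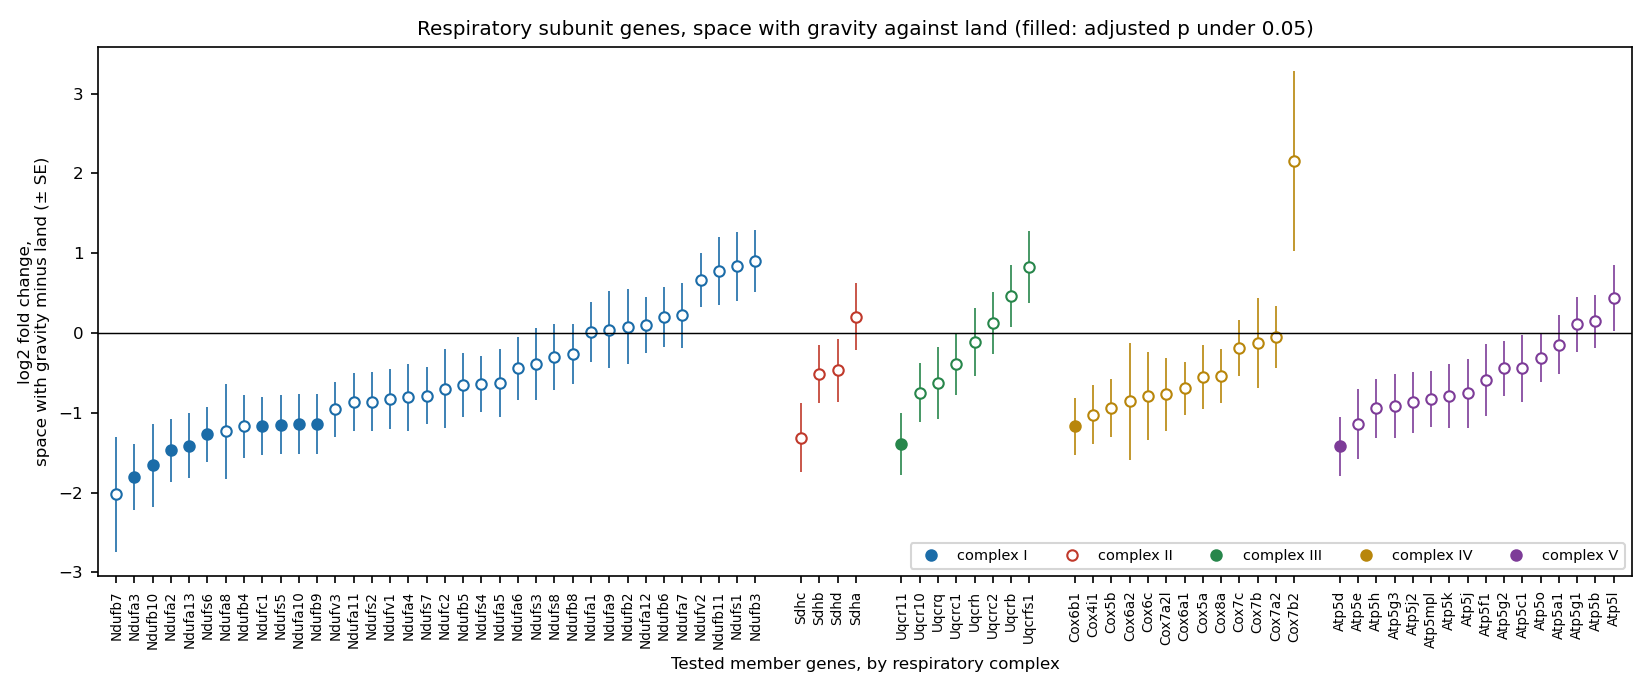
Log2 fold change in space with gravity against land, with its SE, for the 77 tested members by complex, filled where the adjusted p was under 0.05. The 12 filled points all lie below −1, and the members not past the threshold run from −2.02 (Ndufb7) to 2.16 (Cox7b2).

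Complex I takes electrons from NADH in its N module, passes them to ubiquinone in its Q module, and pumps protons in its membrane arm. Median log2 differences of the tested members were −0.54, −0.51 and −1.14 in that order (Ndufa4 is in none of the modules). Over all genes 6.74% passed lower. The members that passed were 2 of 10 in the N module (20.0%), 0 of 6 in the Q module and 7 of 19 in the membrane arm (36.8%). In the N module these were Ndufa2, an accessory subunit with a thioredoxin-like fold (−1.47 ± 0.39 SE, edgeR adjusted p 0.0217), and Ndufs6, a zinc-binding accessory subunit (−1.27 ± 0.35, 0.0245). Ndufa2 had a median of 10.7 CPM in space with gravity (9.26 to 19.9, n = 5) and 37.5 CPM on land (20.2 to 45.8, n = 6). Ndufs6 had 14.9 CPM (12.9 to 15.3) and 32.1 CPM (23.0 to 45.5). For both genes, these ranges did not overlap. The share of all tested genes with separate ranges was not counted. Members named for a small p in these libraries tend to have such ranges, so here and below they are a description only.

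Ndufa3, a small accessory subunit of the membrane arm (ENSMUSG00000035674, GRCm38 chromosome 7, 3617373 to 3620327), had the smallest p of the members. In space with gravity it was at 3.55, 4.21 and 4.61 CPM in untreated libraries and at 2.53 and 9.25 CPM in treated ones, and the smallest library had 0 counts. On land it was at 21.8, 14.3 and 15.4 CPM untreated and at 11.1, 9.82 and 26.4 CPM treated. The highest library in space with gravity lay just under the lowest on land. The fall was 1.80 on the log2 scale, 3.48-fold (SE 0.41, edgeR adjusted p 0.0123).

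The other 6 members of the membrane arm that passed were Ndufb10, Ndufa13, Ndufc1, Ndufs5, Ndufa10 and Ndufb9. Ndufa13, also known as GRIM-19, spans the membrane next to the Q module and fell by 1.41 (SE 0.40, edgeR adjusted p 0.0291), with 36.1 to 75.5 CPM on land and 15.6 to 33.6 CPM in space with gravity. Its exons share 30.0% of their bases with Tssk6 on the other strand, which held 10 counts. Ndufs5, on the outer face of the inner membrane, fell by 1.15 (SE 0.37, adjusted p 0.0448), and a matching pseudogene held 214 counts beside its own 1259. Ndufc1 fell by 1.17 (SE 0.36, adjusted p 0.0398), Ndufa10, a matrix-side subunit with a kinase-like fold, by 1.14 (SE 0.37, adjusted p 0.0486), and Ndufb9, a subunit at the far end of the arm, by 1.14 (SE 0.37, adjusted p 0.0491). Median levels of these 3 on land and in space with gravity were 17.8 and 8.61 CPM for Ndufc1, 42.6 and 22.6 CPM for Ndufa10, and 85.5 and 35.9 CPM for Ndufb9. The ranges of Ndufa13, Ndufs5, Ndufc1 and Ndufa10 did not overlap between the regimes, while that of Ndufb9 did (32.3 to 56.3 CPM against 41.1 to 136 CPM). Again this describes members picked by their p in the same libraries.

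Ndufb10, a membrane arm subunit facing the intermembrane space, had the largest SE of the 12. In space with gravity its untreated libraries were at 21.02, 14.78 and 10.87 CPM and its treated ones at 17.97 and 17.53 CPM. On land the untreated libraries were at 23.59, 37.59 and 38.78 CPM and the treated ones at 169.9, 23.64 and 20.83 CPM. The regimes overlapped, and replicate 1 of land, with nanoceria stood far above the others. The fall was 1.66 (SE 0.52, edgeR adjusted p 0.0426), and without that library the value was −0.77, with an adjusted p of 0.217. Ndufb10 passed in 2 of the 18 fits with 1 library left out. Replicate 1 of land, with nanoceria was also the highest for Ndufb7, a neighbouring subunit, at 518 CPM against 20.0 to 86.8 CPM in the other land libraries. Ndufb7 had the lowest value of all members, −2.02 ± 0.72, and did not pass (adjusted p 0.0667).

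In complex II, which also belongs to the citric acid cycle, 0 of 4 genes passed. Sdhc, a haem-binding membrane anchor, lay just outside the threshold (−1.31 ± 0.43 SE, edgeR adjusted p 0.0513). It was at 14.4, 13.4 and 15.3 CPM in the untreated libraries of space with gravity and at 14.1 and 14.3 CPM in the treated ones. On land it was at 55.6, 45.0 and 14.8 CPM untreated and at 11.8, 31.5 and 42.3 CPM treated. Land thus held 4 high libraries and 2 at the level of space, and the ranges overlapped. Without land, without nanoceria replicate 3 the adjusted p was 0.0325, and without land, with nanoceria replicate 1 it was 0.0392. Sdhb (−0.52 ± 0.37, adjusted p 0.349), Sdhd (−0.47 ± 0.39, 0.433) and Sdha, the flavoprotein that oxidises succinate (0.21 ± 0.42, 0.773), did not pass, and Sdha turned to −0.15 with DESeq2 size factors. The next genes outside the threshold were Ndufb4 (−1.17 ± 0.39, adjusted p 0.0541) and Ndufb7.

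In complex III, 1 of 8 tested genes passed (12.5%, against 6.74% of all genes lower), with a median difference of −0.25. Uqcr11, its smallest subunit (ENSMUSG00000020163, GRCm38 chromosome 10, 80402997 to 80406830), was at 6.51, 8.51 and 8.23 CPM in the untreated libraries of space with gravity and at 8.08 and 15.3 CPM in the treated ones. On land it was at 19.4, 19.4 and 24.6 CPM untreated and at 18.9, 19.2 and 40.0 CPM treated. Every land library was above every one of the 5 libraries of space with gravity. The fall was 1.39 (SE 0.39, edgeR adjusted p 0.0259).

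In complex IV, 1 of 13 tested genes passed (7.69%, near the 6.74% of all genes that passed lower). The median was −0.69, with 12 of 13 values below 0. Cox6b1, which lies on the intermembrane side and joins the monomers of the complex (ENSMUSG00000036751, GRCm38 chromosome 7, 30616861 to 30626151), was at 9.67, 9.11 and 12.5 CPM in the untreated libraries of space with gravity and at 9.26 and 17.2 CPM in the treated ones. On land it was at 25.4, 31.2 and 22.3 CPM untreated and at 17.4, 24.6 and 28.0 CPM treated. The highest value of space with gravity nearly met the lowest land value. The fall was 1.17 (SE 0.36, edgeR adjusted p 0.0387). The only value above 0 in the complex was that of Cox7b2 (2.16 ± 1.13, adjusted p 0.199), which had 152 counts in all. Cox6a2, the muscle form, did not pass (−0.86 ± 0.73, adjusted p 0.440).

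In complex V, 1 of 16 tested genes passed (6.25%, near the 6.74% of all genes that passed lower), with a median of −0.67. Atp5d, the delta subunit in the central stalk of the ATP synthase (ENSMUSG00000003072, GRCm38 chromosome 10, 80138632 to 80145818), was at 27.9, 26.3 and 39.7 CPM in the untreated libraries of space with gravity and at 32.6 and 47.3 CPM in the treated ones. The smallest library had 2 counts of it, below the floor. On land it was at 139, 85.4 and 56.2 CPM untreated and at 80.3, 95.2 and 86.6 CPM treated. The land libraries were again all above the 5 libraries of space with gravity. The fall was 1.42, 2.67-fold (SE 0.37, edgeR adjusted p 0.0201). Atp5a1 and Atp5b, for the alpha and beta subunits of the catalytic head, had values of −0.14 ± 0.37 (adjusted p 0.828) and 0.14 ± 0.34 (adjusted p 0.804).

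**Figure D3:**
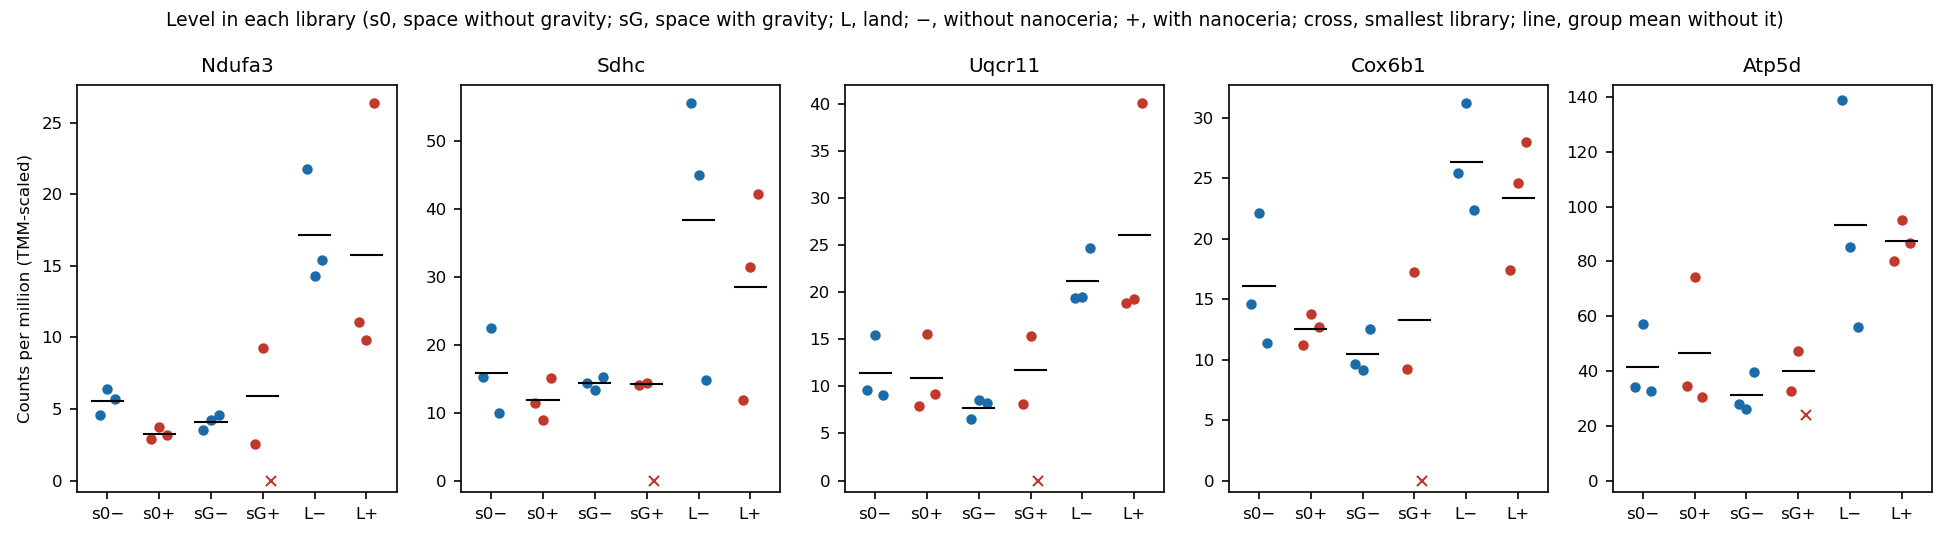
TMM-scaled CPM of Ndufa3, Sdhc, Uqcr11, Cox6b1 and Atp5d in each library of the 6 groups (points), with group means (lines) that leave out the smallest library (cross). In Ndufa3, Uqcr11, Cox6b1 and Atp5d all 6 land libraries lie above the 5 libraries of space with gravity, while Sdhc has 2 land libraries at the level of space. The genes drawn had the smallest p of their complex in this comparison, so their separation is a description only.

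The number of members that passed depended on single libraries. Leaving out 1 library at a time gave 0 without space with gravity, with nanoceria replicate 1, where 459 of all genes passed in place of 1613. It gave 1 each without replicates 1 and 2 of space with gravity, without nanoceria, and 4 without replicate 3. Without replicates 1 and 2 of land, without nanoceria it gave 3 and 2, and without replicate 3 of land, with nanoceria 7. Without any 1 of the 6 libraries of space without gravity it gave 6, with 12363 to 12493 genes kept by the filter in place of 11558. In the other 5 such fits the number was between 9 and 12. Ndufa3 passed in 17 of the 18 fits, Ndufa2 and Atp5d in 14, and Uqcr11, Ndufa13 and Ndufs6 in 12. The other 6 passed in few of them: Cox6b1 and Ndufc1 in 4, Ndufs5 in 3, and Ndufa10, Ndufb9 and Ndufb10 in 2. The values of the 12 members stayed below 0 in all 18. With the libraries of the groups compared only, 1 member passed, and with no filter on low counts 3, of which 2 were among the 12. All 12 also passed with DESeq2, which gave 32 members, 32 lower, where 23.6% of all genes passed, and with limma voom, which gave 18 members, 17 lower, where 14.4% did. With DESeq2 size factors in edgeR 27 members passed, 27 lower, but that scaling also moved the median of all genes from −0.045 to −0.39 and the share of all genes called lower from 6.74% to 13.5%.

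The share of counts held by the 6 most abundant genes, a set chosen after their counts were seen, moved with the same contrast. These genes were Lars2, Gm23935, Gm15564, Gm24270, Gm24187 and Gm25911. It was between 24.5% and 54.4% in the 5 libraries of space with gravity and between 49.6% and 76.3% on land. With that share as a covariate, 0 members passed, 1 had an unadjusted p under 0.05 and the median was −0.059, and over all genes 1 of 11558 passed. Removing the 6 genes before scaling left the number at 12.

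GC content moved with the difference as well. Over the 77 members the log2 difference between space with gravity and land had a Pearson correlation of −0.53 with exon GC content (Spearman −0.51), and over 11553 genes −0.29 (Spearman −0.35). With log2 gene length the correlation was 0.079 over the members (Spearman of length 0.13) and 0.11 over 11553 genes (Spearman 0.21). Medians under 1000 bases were −0.70 for the members and −0.54 for all genes, and at 1000 or more −0.63 and −0.0022. Under 1000 bases 26.1% of members passed lower, against 15.3% of all genes. At 1000 or more the shares were 11.1% and 6.10%. These correlations are across genes of the same libraries, and genes are not independent replicates. Of the 12 members that passed, 11 had an exon GC content of 50% or more. Among the 39 members at or above 50% GC, 11 passed lower (28.2%), against 11.2% of all genes in that range. Among the 38 members below 50%, 1 passed, Ndufc1 (2.63%), against 3.10% of all genes. The 12 members had a median length of 941 bases, the 77 tested members 1534 and all tested genes 4059. With trends in length and GC content removed in each library, an alternative chosen after seeing the data, 6 members passed, 5 lower and 1 higher, with a median of −0.34, and 4 of the 12 were among them.

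**Figure D4:**
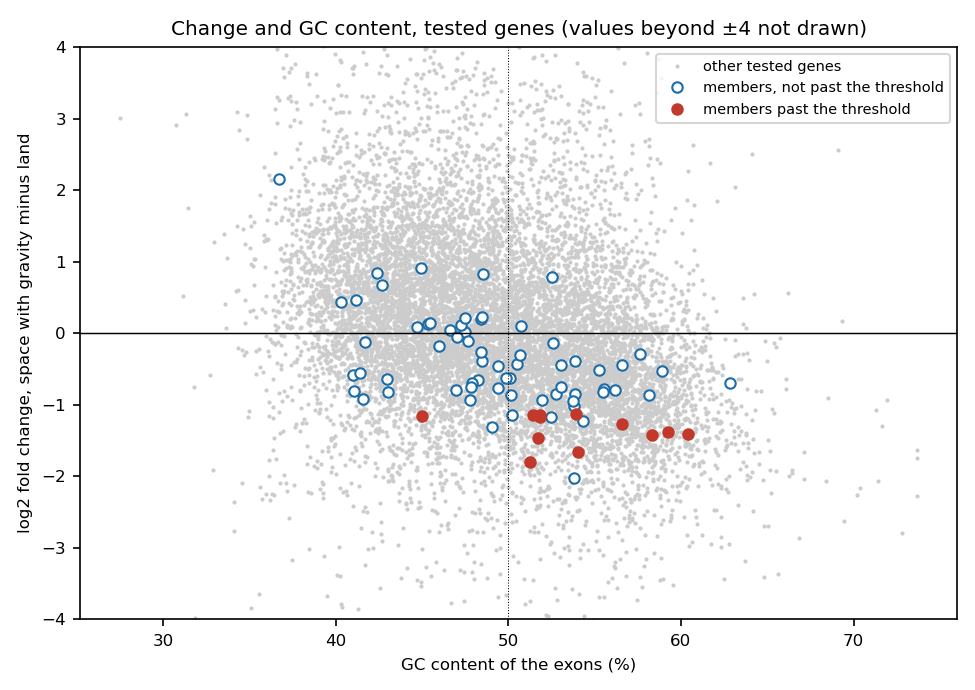
Log2 fold change in space with gravity against land and GC content of the exons, for tested members (circles, filled where the adjusted p was under 0.05) and the other tested genes (grey dots). All but 1 of the 12 filled circles lie to the right of the dotted line at 50% GC.

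The promoters of the members were read for the sites of factors known to act on respiratory genes. RefSeq promoters (GRCm38.p6) matched 66 of the 88 members, 63 of the tested ones and 10 of the 12 that passed, and the 250 bases before the start site were searched on both strands for 6 strings, none of which contains another. The NRF1 string, a palindrome whose letters are the capitals of the Ndufa11 stretch below, was in 4 of 63 tested members (6.35%) and in 2.10% of the 8470 tested genes with a promoter. The ETS string CCGGAAG was in 19.0% and 16.6%, the SP1 string GGGGCGGGG in 11.1% and 23.6%, the YY1 string AAGATGGCG in 1.59% and 1.53%, the box CCAAT in 42.9% and 40.5%, and the box TATAAA in 9.52% and 7.57%. Of the 10 members that passed and had a promoter, 0 held the NRF1 string, 2 the ETS string and 3 the SP1 string. The stretches below show these strings in 3 members that passed and, for the NRF1 string, in Ndufa11, which did not pass (−0.86 ± 0.36, edgeR adjusted p 0.112). Stretches that reach into an annotated exon are not shown. This leaves out the SP1 strings of Ndufa13, an ETS string of Cox6b1 and the NRF1 strings of Atp5g2, Atp5k and Cox6a1, so that Ndufa11 held the only NRF1 stretch left. Capitals mark the string, each stretch reads 5′ to 3′ on the strand of its gene, and a match is a description of letters only. In Ndufa3 (chr7:3617299-3617358, plus strand) the SP1 string ended 41 bases before the start site. In Ndufa10 (chr1:92473869-92473898, minus strand) it was met in reverse, 122 bases before. In Uqcr11 (chr10:80406854-80406913, minus strand) the ETS string ended 60 bases before the start, and in Ndufa11 (chr17:56717692-56717721, plus strand) the NRF1 string ended 51 bases before it.
Ndufa3: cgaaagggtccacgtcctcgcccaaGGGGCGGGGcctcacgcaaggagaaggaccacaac
Ndufa10: ttccctctggCCCCGCCCCgtcccagttcc
Uqcr11: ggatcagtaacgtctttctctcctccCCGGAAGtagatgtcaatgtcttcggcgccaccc
Ndufa11: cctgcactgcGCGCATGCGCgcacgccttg

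Space without gravity was compared with land in the same way. The comparison shares its land libraries with the one above, so the values are given side by side. Ndufa3 alone passed, of 77 members, where percent called was 5.25 in either direction, 2.44 lower and 2.81 higher. It was at 4.61, 6.38 and 5.70 CPM in the untreated libraries of space without gravity and at 2.91, 3.71 and 3.22 CPM in the treated ones, all below the lowest land library at 9.82 CPM. The fall was 1.94 on the log2 scale, 3.85-fold (SE 0.40, edgeR adjusted p 0.0175). The call was lost without replicates 1 or 3 of space without gravity, without nanoceria (adjusted p 0.0568 and 0.0546), without land, without nanoceria replicate 1 (0.0533) and without land, with nanoceria replicate 3 (0.0531). With 2 further libraries left out in turn the number of members rose, to 3 without the smallest library and to 2 without land, without nanoceria replicate 3.

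The median over the members was −0.38, against −0.025 for all genes, and 60 of 77 values were below 0, against 51% of all genes. At an unadjusted p under 0.05 there were 15 members, against 24.7% of all genes in either direction. Of the members 14 were lower, against 1442 of 11558 genes. DESeq2 gave 12 members, where 13.4% of all genes passed, and limma voom 10, where 8.73% did. Of the other members lower in space with gravity, Atp5d had −1.05 ± 0.36 (edgeR adjusted p 0.0866), Uqcr11 −1.08 ± 0.37 (0.0874) and Cox6b1 −0.80 ± 0.35 (0.162). Sdhc had −1.27 ± 0.42 (0.0792), with 8.91 to 22.5 CPM in the 6 libraries, and Sdha 0.29 ± 0.41 (0.704). Summed over the members, the level was 1832 ± 174 CPM (SD, n = 6) in space without gravity, 1725 ± 367 CPM (SD, n = 5) in space with gravity and 2473 ± 268 CPM (SD, n = 6) on land. Land libraries began at 2147 CPM, above all 6 libraries of space without gravity and 4 of the 5 of space with gravity.

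At a single nanoceria level, with 3 libraries against 3, 0 members passed with edgeR in any comparison with land. For space with gravity against land without nanoceria, percent called was 0, and 18 members had an unadjusted p under 0.05, against 21.5% of all genes. With nanoceria percent called was 0.00865, and 12 members had an unadjusted p under 0.05, against 20.5%. For space without gravity the numbers were 10 members against 13% of all genes without nanoceria (percent called 0) and 8 against 19.2% with it (percent called 0.0433). Other tools gave more. For space with gravity without nanoceria, DESeq2 gave 18 members (11.5% of all genes passed) and limma voom 28 (20.8%). With nanoceria DESeq2 gave 4 (9.34%) and limma voom 0 (0%). For space without gravity, DESeq2 gave 0 (2.57%) and limma voom 2 (2.15%) without nanoceria, and 2 (7.46%) and 0 (0%) with it.

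Other genes of the pathway were followed by list, for space with gravity against land. Assembly factors, which build the complexes without staying in them, had 3 of 41 genes that rose and 3 that fell, with a median of −0.16. These are 14.6% of the list, near the 14% of all genes that passed. Those that rose were Sco1, which delivers copper to complex IV (3.14 ± 0.70 SE, edgeR adjusted p 0.0111), Cox15, which makes its haem a (3.06 ± 0.59, 0.00703), and Tmem126b, of the complex that assembles the membrane arm of complex I (2.61 ± 0.48, 0.00566). Those that fell were Uqcc2, an assembly factor of complex III (−2.22 ± 0.49, 0.0110), Cmc2, of complex IV (−1.60 ± 0.47, 0.0322), and Ndufaf8, of complex I (−1.56 ± 0.44, 0.0281). Of 13 further nuclear genes of the chain, 1 passed (7.69%), Atpif1, the inhibitor of the ATP synthase (−1.54 ± 0.39, adjusted p 0.0182).

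Of 15 regulators of mitochondrial biogenesis, 0 passed with edgeR (1 at an unadjusted p under 0.05), with a median of 0.53. A list of 17 genes held the citric acid cycle together with pyruvate dehydrogenase, which feeds it, and its kinase. In it 1 gene rose (5.88%), with a median of 0.13. That gene was Pdhb, a subunit of pyruvate dehydrogenase and thus outside the cycle itself (1.21 ± 0.37, edgeR adjusted p 0.0378). Mitochondrial ribosomal proteins, which translate the mitochondrially encoded subunits, had 11 of 76 lower and 2 higher, 17.1% of the list against 14% of all genes, with a median of −0.42. The lowest were Mrpl52 (−2.17 ± 0.42, adjusted p 0.00701) and Mrps16 (−2.16 ± 0.49, 0.0116), and the highest Mrps31 (1.98 ± 0.56, 0.0281) and Mrps5 (1.32 ± 0.40, 0.0370). The list of subunits encoded on mitochondrial DNA holds 13 genes, of which 11 were tested. Of these, 11 of 11 passed lower, against 6.74% of all genes, with a median of −2.19. How fully libraries of polyadenylated RNA capture the transcripts of this list was not tested. In that list mt-Atp8 (−3.99 ± 0.89, adjusted p 0.0111) and mt-Nd6 (−2.36 ± 0.51, 0.00984) were lowest, and mt-Co1 (−1.47 ± 0.43, 0.0316) and mt-Co3 (−1.79 ± 0.45, 0.0166) were the least low.

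For space without gravity against land, 2 assembly factors rose (4.88%, against 5.25% of all genes in either direction), Cox15 (2.95 ± 0.59, edgeR adjusted p 0.0145) and Sco1 (2.49 ± 0.68, 0.0420), and 5 mitochondrial ribosomal proteins fell (6.58%, against 2.44% of all genes lower): Mrpl4 (−1.74 ± 0.46, 0.0386), Mrpl28 (−1.66 ± 0.44, 0.0392), Mrpl52 (−1.62 ± 0.39, 0.0289), Mrps12 (−1.47 ± 0.37, 0.0342) and Mrpl43 (−1.43 ± 0.36, 0.0314). Of the mitochondrially encoded subunits 1 of 11 passed (9.09%, against 2.44% of all genes lower), mt-Atp8 (−2.67 ± 0.76, 0.0488). In the other 3 lists 0 genes passed, with 1, 2 and 2 at an unadjusted p under 0.05. For nanoceria and for the withdrawal of gravity 0 genes of the 6 lists passed, where percent called was 0. The lowest unadjusted p values of these were in the mitochondrially encoded list, which had 11 of 11 values below 0 with nanoceria (median −0.82, 5 at p under 0.05) and 11 of 11 above 0 without gravity (median 1.34, 9 at p under 0.05).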

How the data were processed

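Raw counts per gene were deposited for 18 polyadenylated RNA libraries, with gene coordinates and lengths, per the file headers. The submitters' processing notes name CASAVA, Trimmomatic 0.36.29, STAR, Subread, featureCounts and GRCm38.p6. Their settings and the use of strand are not given in the sources used here, and 18 small RNA samples were not analysed here. The labels' protocols name a mirVana PARIS extraction and the NEBNext Ultra kit.

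Counts were fitted over the whole table with edgeR 4.0.16 (R 4.3.3): filterByExpr over the 6 groups (minimum count 10), TMM scaling, a group-means model over 18 libraries and the robust quasi-likelihood test with 12 residual degrees of freedom. Alternatives used DESeq2 1.42.0, limma 3.58.1, other filters and sample sets, and each library left out. The script was tested on simulated data. GC content came from the RefSeq genome GRCm38.p6 over the deposited exon coordinates, and overlaps from those coordinates. Gene types came from GENCODE M21 (44858 of 49315 genes with the same start and end). Pseudogene matches came from BLAST 2.17.0 on GENCODE M21 transcripts (identity of at least 95% over 100 bases or more, where 25 of 77 tested members matched one). Levels per kilobase used the deposited gene length. The floor of a library was 3 counts, and floors cover counting error only.

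The members and lists were chosen with earlier results of these data known. The genes named were, per averaged contrast, each member past the threshold (or, with none, the smallest p in each complex), the 2 highest per kilobase in each complex, alternative isoforms, the Sdh genes, and from each list all genes past the threshold up to 6, otherwise the 2 highest and 2 lowest. Further genes were named after their values were seen: Ndufb7, Ndufb4, Atp5a1, Atp5b, Atp5k, Ndufa11, Ndufa12 and Ndufb2.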

Additional observations from a re-analysis of the deposited data

How the results depend on the processing

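No paired analysis was possible because replicates carry no number in the labels and were numbered by accession. Counts of 0 members for nanoceria and for gravity, averaged and within each level, and for the test between regimes stayed at 0 in every alternative and leave-one-out fit run. The DESeq2 test moved the median of all genes for space with gravity against land from −0.045 to −0.37. For that contrast (12 members) DESeq2 size factors in edgeR gave 27 members, the DESeq2 test 32, a mean of at least 50 counts 24, no filter 3, the libraries of the groups compared 1, the share of the 6 most abundant genes as a covariate 0, a length trend removed 7 (5 lower and 2 higher, 4 of them among the 12), and length and GC trends removed 6. Leave-one-out fits gave 0 to 12 and tested between 12286 and 12521 genes, since the filter then asks for fewer libraries. For space without gravity against land (1 member) the same settings gave 6 (DESeq2 size factors), 12 (DESeq2 test), 10 (limma voom), 7 (mean of at least 50 counts), 3 (smallest library left out) and 0 (the covariate), and leave-one-out fits 0 to 3. At one nanoceria level, space with gravity against land gave 18 (DESeq2), 28 (limma voom), 2 (mean of at least 50 counts) and 2 (the groups compared) without nanoceria, and 4 (DESeq2) and 1 (no filter) with it. Space without gravity against land gave 2 (limma voom) without nanoceria and 2 (DESeq2) with it. The member median for gravity was −0.12 with the covariate, and for space with gravity against land −0.98 (DESeq2 size factors), −0.96 (DESeq2), −0.059 (the covariate) and −0.34 (length and GC trends). Signs turned, with no call in either fit, for Sdhb (gravity, covariate, −0.27), Cox6a1 (gravity, length and GC trends, −0.021), and, against land in space with gravity, Sdhb (0.23) and Sdhd (0.56) with the covariate and Sdha with DESeq2 size factors (−0.15), DESeq2 (−0.13), a mean of at least 50 counts (−0.068) and length and GC trends (−0.027). The sum of the members' levels per kilobase on land with nanoceria was 0.859 of that without it, and 0.676 with TPM in place of these levels. Of 295 comparisons of named members with an alternative, the call and sign were kept in 230, the call was lost in 52 and gained in 5, and the sign turned in 8. In 486 leave-one-out comparisons these numbers were 362, 122, 2 and 0. Except where a value is given, the cause was not tested.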
